A study of Mus musculus with 12 samples.

Results

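Oxidative phosphorylation is the last stage of respiration, in which electrons pass along complexes I to IV of the mitochondrial inner membrane and the resulting proton gradient drives ATP synthesis by complex V. Most subunits of these complexes are encoded in the nucleus, and a few core subunits are encoded by mitochondrial DNA. The nuclear genes are often transcribed together, and they are abundant in the intestinal epithelium, which spends much energy on transport and renewal. Doxycycline (dox), the inducer used in this study, belongs to the tetracyclines, antibiotics that act on bacterial ribosomes and can also slow the ribosomes of mitochondria. A change of these genes in dox-treated organoids could therefore come with the drug or with the induced SMAD4. The series holds 1 mock pair, in a line with no induced library, so line, drug and construct cannot be told apart in its comparison with the induced pairs.

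The genes were taken by symbol, as all rows that begin with Nduf followed by a, b, c, s or v, the 4 succinate dehydrogenase genes Sdha to Sdhd, and all rows that begin with Uqcr, with Cox4 to Cox8 or with Atp5. This gave 94 of the 24906 genes listed in each table. Of these, 47 belong to complex I by name, 4 to complex II, 8 to complex III, 18 to complex IV and 17 to complex V. The complex I group includes 8 assembly factors (the Ndufaf genes) and Ndufa4, whose protein is now known as a subunit of complex IV. Of 26 names of mitochondrially encoded genes looked up, 0 were among the genes tested, so the mitochondrially encoded subunits were not analysed here.

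The 12 libraries are RNA-Seq of tumor organoids from mouse small intestine, all Smad4KO, BRAFV600E/+ and pINDUCER-SMAD4 by genotype label. Per the study's methods the alleles were recombined by a Cre under the Villin promoter, which is active in intestinal epithelium, and the untreated controls have the same genotype label. In BME (basement membrane extract) there were 3 untreated libraries (lines 682, 700 and 889), 2 libraries given 4 µg/mL dox (lines 700 and 889) and 1 library of line 682 labelled as given the same dose of dox and mock. The plastic table holds lines 560, 700 and 889, each as 1 untreated library and 1 library given 4 µg/mL dox. It has no mock library, so on plastic dox and SMAD4 cannot be told apart. All cultures were collected at 48 h, and a line was taken as 1 biological sample. Fits that did not pair libraries by line still counted each library separately. The mock library's labels conflict: its genotype label names the SMAD4 construct, and the study's methods describe a mock plasmid without saying which library held it. Smad4 stood at 10.3 FPKM in the mock library and 8.88 in untreated 682, against 17.2 and 27.3 in the induced BME libraries and 6.53 and 6.23 in their untreated partners. On plastic it was 18.1 to 73.6 FPKM with dox and 1.54 to 4.76 without. Smad4 was thus above 0 in every untreated library. Which part of the gene is deleted is not given in the sources used here, so a value for the whole gene does not check the deletion.

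The whole-series facts that touch these genes are few. Depth, rebuilt from the steps between low values, ranged over the BME libraries from 14531212 to 16335915 reads and over the plastic libraries from 17018489 to 21066051. All 10 epithelial markers examined were at or above a mean of 0.5 FPKM in BME and 9 of 10 were on plastic, while the summed level of 6 fibroblast markers was 0.639 to 5.41 FPKM in BME and 0.114 to 0.417 on plastic. Summed immune, endothelial and muscle markers were each below 1 FPKM in every library. FPKM scales the fragments of a gene by transcript length and by library depth. All changes below are differences of log2(FPKM + 1), and a gene was tested in a table where its mean reached 0.5 FPKM.

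Promoters were read for the members with a sequence at hand, because many nuclear respiratory genes share binding motifs of a small set of factors. Some members named below had none, among them Atp5a1, Cox4i1, Ndufs1 and Uqcrb. Promoter windows from 250 bases before to 50 after the start were at hand for 75 of the 94 genes (RefSeq, GRCm38.p6). The NRF1 motif, GCGCNTGCGC on either strand, was present in 19 of the 75 (25.3%), against 11.9% of 9350 other genes tested in both tables and 5.19% of all 27025 genes with a window. AAGGTCA, the core motif of the estrogen-related receptors, was present in 8 (10.7%), against 3.86% of the other tested genes and 5.38% of all. The shares for CCGGAAG, the ETS motif bound by GABPA, were 25.3% and 21.1%, with 9.93% of all genes. AAGATGG, bound by YY1, was present in 14.7% of members, 8.43% of the other tested genes and 7.28% of all genes. CACGTG, the E-box bound by MYC, was present in 6.67%, 12.1% and 8.09%. The palindromic SMAD motif GTCTAGAC was in 0 of the 75 windows and in 0.248% of all genes' windows. Each motif was searched on both strands, a promoter could count under several motifs, and for the 5 genes with several starts each start was searched.

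The 150 bases before the start are printed for 7 of these genes, with every occurrence of the motifs above in capitals. They were picked to show members with and without motifs among the genes named below. Ndufs5 shows an NRF1 motif, Sdha repeated NRF1 motifs, Cox6a1 an NRF1 and an ETS motif, Uqcr11 an ETS motif, and Atp5l an E-box and an estrogen-related receptor motif, while Cox7a1 and the nearly silent Cox8b hold none. The printed stretches lie on GRCm38.p6 at chr4:123718187-123718336 (Ndufs5, minus strand), chr13:74350241-74350390 (Sdha, minus strand), chr10:80406822-80406971 (Uqcr11, minus), chr5:115348959-115349108 (Cox6a1, minus), chr7:30184021-30184170 (Cox7a1, plus), chr7:140900447-140900596 (Cox8b, minus) and chr9:44920743-44920892 (Atp5l, minus).
Ndufs5: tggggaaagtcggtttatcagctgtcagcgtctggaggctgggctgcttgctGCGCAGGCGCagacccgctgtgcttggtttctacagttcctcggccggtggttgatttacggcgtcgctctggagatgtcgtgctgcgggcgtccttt
Sdha: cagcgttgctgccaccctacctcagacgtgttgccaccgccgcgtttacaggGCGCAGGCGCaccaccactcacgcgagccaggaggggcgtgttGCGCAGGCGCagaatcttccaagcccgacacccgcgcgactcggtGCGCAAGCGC
Uqcr11: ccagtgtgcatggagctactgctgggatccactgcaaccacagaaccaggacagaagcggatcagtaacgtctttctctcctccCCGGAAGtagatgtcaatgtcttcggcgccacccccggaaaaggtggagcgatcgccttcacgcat
Cox6a1: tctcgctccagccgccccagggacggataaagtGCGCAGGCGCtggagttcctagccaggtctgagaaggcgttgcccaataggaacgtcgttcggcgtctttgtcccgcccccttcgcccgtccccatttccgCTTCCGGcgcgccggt
Atp5l: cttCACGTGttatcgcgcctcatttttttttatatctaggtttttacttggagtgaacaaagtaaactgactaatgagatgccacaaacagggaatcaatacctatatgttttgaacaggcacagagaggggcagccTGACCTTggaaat
Cox7a1: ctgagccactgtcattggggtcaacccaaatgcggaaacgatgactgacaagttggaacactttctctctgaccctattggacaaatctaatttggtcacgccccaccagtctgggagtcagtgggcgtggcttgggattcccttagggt
Cox8b: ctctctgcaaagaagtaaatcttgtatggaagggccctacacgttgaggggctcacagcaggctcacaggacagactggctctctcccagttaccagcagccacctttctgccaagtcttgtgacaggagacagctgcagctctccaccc

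The complexes were strongly expressed in both environments. The median member stood at 147 FPKM in BME and 113 on plastic, against 11.9 and 10.4 FPKM for the median of all tested genes. By complex the medians in BME were 82.7 FPKM for complex I, 119 for complex II, 198 for complex III, 352 for complex IV and 299 for complex V. Together the tested members held 3.01% to 3.35% of all FPKM in a BME library and 2.23% to 3.22% in a plastic library. The tables were normalised separately, so levels were not tested between BME and plastic.

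Of the 94 members, 87 were tested in BME and 88 on plastic, and those below the filter were all isoforms of low or restricted expression. Cox4i2, Cox6b2, Cox7b2, Cox8b, Cox8c and Ndufa4l2 were below it in both tables. Cox6a2, the muscle form of subunit 6a, was below it in BME and at a mean of 0.634 FPKM on plastic. Cox8c, a testis form, was listed at 0 in all 12 libraries. Each of these isoforms was far below its broadly expressed counterpart. Cox4i1 made up 99.9% to 100% of the FPKM of the Cox4 pair in every library, Cox6a1 at least 99.87% of the Cox6a pair and Cox8a at least 99.9587% of the Cox8 group. In the Cox7a group the supercomplex factor Cox7a2l held 56.1% to 67.0% in BME and 56.4% to 68.0% on plastic, and Cox7a2 held 32.2% to 42.8% and 31.6% to 42.1%. Cox7a1, the heart and muscle form, held 0.659% to 1.21% in BME and 0.149% to 2.37% on plastic.

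The order of levels within a complex was wide in complexes I and IV and narrow in complex II. Ndufa3, an accessory subunit, was the most abundant complex I member (397 FPKM in BME and 332 on plastic), and the assembly factor Ndufaf5 was the least (3.29 and 2.43 FPKM). Cox8a led complex IV at 1778 and 1365 FPKM. Uqcr11 led complex III at 432 and 361 FPKM, and Atp5md, a small membrane subunit of the ATP synthase, led complex V at 889 and 892 FPKM. In complex II the highest subunit, Sdhc, stood at 159 FPKM and the lowest, Sdhb, at 99.9 in BME, and the range on plastic was 2.21-fold.

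In BME, no member was called when the 2 dox libraries were compared with the 4 controls (untreated and mock). A call required an absolute change above 1 together with a limma adjusted p below 0.05, and 0.0231% of all 12996 genes met both. The lowest adjusted p of a member was 0.959 in limma. Even so, 78 of the 87 tested members had a change above 0, with a median of 0.12, where the median over all genes was -0.01. At an unadjusted p under 0.05, 3 of 87 members were higher (3.45%) and 0 were lower, against 2.62% and 1.47% of all genes. Since these are bulk RNA values, fewer cells of a type and less RNA per cell cannot be told apart. The count of members at that p, all higher, was 1 without the mock library (1.97% of all genes higher), without untreated 682 (1.32%) or without untreated 700 (3.22%). It was 2 without dox 700 (2.99%), 4 without untreated 889 (4.04%) and 5 without dox 889 (3.11%). With the mock library left out 70 of 87 members were above 0 with a median of 0.10, and with it counted as a dox library, as its treatment label reads, 51 were above 0 with a median of 0.02.

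The 3 members were Ndufa13, Uqcr11 and Cox7a1. Ndufa13 encodes a complex I accessory subunit also known as GRIM-19. Its FPKM was 93.9 and 90.7 with dox (lines 700 and 889), 65.1 and 72.9 in their untreated partners, 62.0 in untreated 682 and 64.8 in the mock library. Both dox libraries were above every control, the mock pair differed by 0.06, and the limma change was 0.47 (SE 0.13, unadjusted p = 0.00892, adjusted p = 0.959). Uqcr11, the smallest subunit of complex III, was at 507 and 550 FPKM with dox, 319 and 443 in the untreated partners, 366 in untreated 682 and 411 with mock. Its dox libraries also did not overlap the controls, and here the mock library was above its partner by 0.17, with a limma change of 0.47 (SE 0.18, adjusted p = 0.959).

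Cox7a1 had the highest change of a member in BME. It stood at 7.49 and 4.74 FPKM with dox, 4.22 and 2.74 in the untreated partners, 4.37 in untreated 682 and 3.36 with mock, and the limma change was 0.59 (SE 0.24, adjusted p = 0.959). Both dox libraries were above the controls, although line 889 only narrowly. Cox7a1 had a mean of 15.1 normalised counts in BME and 12.9 on plastic, so its differences rest on few reads. On plastic the same gene was at 7.32 FPKM with dox and 6.01 without in line 560, 0.526 and 1.15 in line 700, and 2.32 and 1.099 in line 889, so the 3 lines did not move one way. Atp5e, the epsilon subunit of the ATP synthase, had the second highest change in BME (0.52, SE 0.27, limma adjusted p = 0.959), but in line 889 it stood at 240 FPKM in both libraries. Its lower control values came from line 682, at 133 FPKM with mock and 149 untreated.

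The lowest BME changes were those of Ndufs5, described below with its pseudogene, and of Atp5g2, Ndufaf6 and Ndufa6. Atp5g2, a gene for the membrane ring of the ATP synthase, was at 653 and 512 FPKM with dox, 710 and 518 in the untreated partners, 755 in untreated 682 and 575 with mock (change -0.13, SE 0.22, limma adjusted p = 0.968). The changes of Ndufaf6 and Ndufa6 were -0.06 (SE 0.36) and -0.05 (SE 0.32). In each of these genes the difference was smaller than its standard error.

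Same-line pairs set each dox library beside its own untreated partner. In the mock pair of line 682 the median change over the 87 members was -0.17, and 79 of 87 were lower in the mock library. In the induced BME pair of line 700 the median was 0.18 and 77 of 87 were higher. In the induced BME pair of line 889 it was 0.05, with 55 higher and 31 lower. The median over all tested genes was -0.01 in the mock and line 700 pairs and -0.003 in the line 889 pair. The mean of the medians of the induced BME pairs was 0.11 ± 0.09 (SD, n = 2). The mock pair has no replicate, so no test of its median was made.

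**Figure D1:**
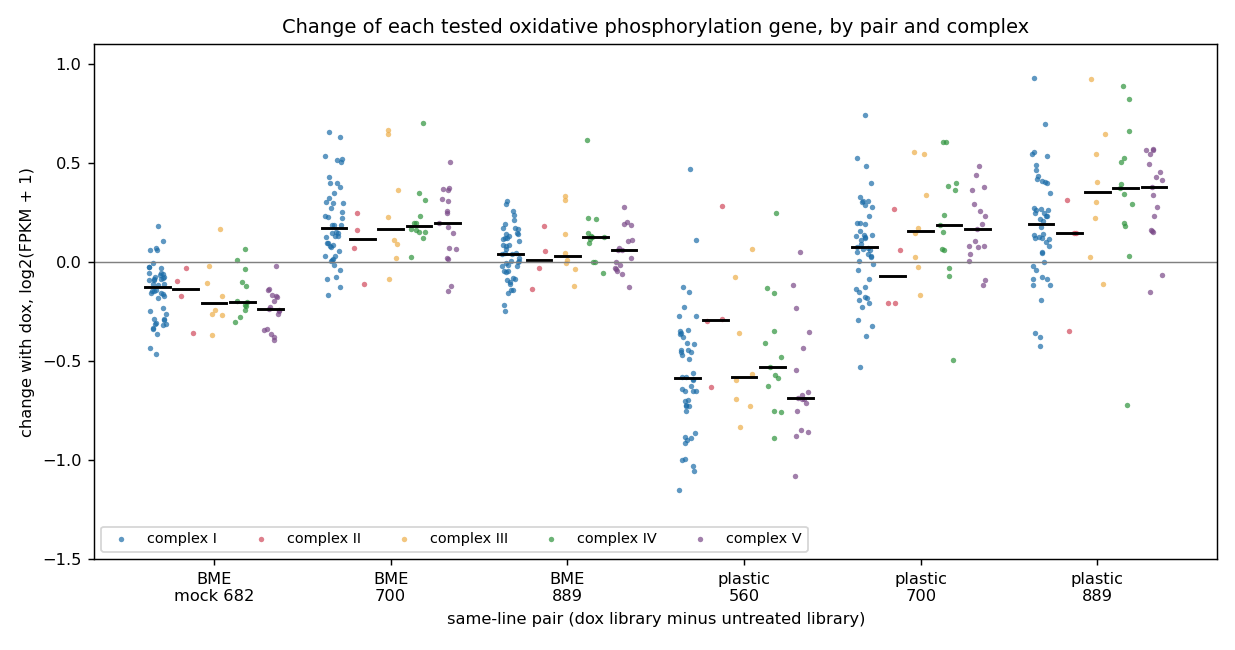
Change with dox of each tested member in the 6 same-line pairs, on the log2(FPKM + 1) scale, with 1 point per gene, colours for complexes I to V and black bars for the median of each complex. The mock pair and the plastic pair of line 560 lie mostly below 0 (79 of 87 and 82 of 88 members lower), and the other 4 pairs mostly above it.

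All 5 complexes took the same sign in each BME pair. In the mock pair the medians were -0.13 (complex I), -0.13 (II), -0.21 (III), -0.20 (IV) and -0.24 (V), and for complex V 0 of 17 members were higher. In the line 700 pair they were 0.17, 0.12, 0.17, 0.18 and 0.20, and 12 of 12 tested complex IV members were higher. In the line 889 pair they were 0.04, 0.01, 0.03, 0.13 and 0.06. Within complex I the medians of the 8 assembly factors and the 30 accessory subunits were 0.01 and 0.24 in line 700, 0.02 and 0.04 in line 889, and -0.30 and -0.10 in the mock pair, differences that were not tested. The 7 catalytic core subunits had medians of 0.13 in line 700, 0.05 in line 889 and -0.15 with mock.

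The difference between the induced change and the mock change was tested gene by gene with line as a block, which left 1 residual degree of freedom. No member was called, and 0% of all genes were called (0 of 12996 by limma). At an unadjusted p under 0.05, 3 of 87 members were higher and 0 lower, against 1.39% and 1.16% of all genes. The lowest adjusted p of a member was 0.988 in limma. The estimated difference was above 0 for 86 of 87 members with a median of 0.27. Of all genes 50.9% were above 0, with a median of 0.01. Taken from the pair medians, the members' difference was 0.29. It was 0.15 against genes of like transcript length and 0.11 against genes of like mean FPKM, as described below. All of these differences share 1 mock pair, so a single low library or high partner enters every one of them.

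The 3 members past the unadjusted p were Cox7a1 (difference 0.96, SE 0.23, on few reads), Atp5j (0.60, SE 0.18) and Atp5l (0.59, SE 0.18). Atp5j and Atp5l, named after their values were seen, encode small subunits of the stalk and membrane parts of the ATP synthase. Estimates above those of Atp5j and Atp5l but with larger errors, not past that p, were those of Uqcrb, the ubiquinone-binding protein of complex III (0.68, SE 0.36), Ndufs6, a zinc-binding complex I subunit (0.64, SE 0.27), and the assembly factor Ndufaf8 (0.63, SE 0.27), each with a limma adjusted p of 0.988. Uqcrb was at 293 FPKM with dox and 187 without in line 700, 229 and 235 in line 889, and 190 and 246 in the mock pair. Ndufs6 was at 125 and 94.8 FPKM in line 700, 128 and 132 in line 889, and 108 and 149 in the mock pair. In both genes dox 700 was above its partner, the line 889 libraries were nearly equal and the mock library was below its partner. Ndufaf2 was the 1 member with a difference below 0 (-0.18, SE 0.22).

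The direction of single genes was shared as follows. Of 87 members tested in both tables, 42 (48.3%) were higher in both induced BME pairs and lower in the mock pair, a pattern found in 9.87% of all 11977 genes. The reverse pattern was found in 0 members and in 10.9% of all genes. Both induced BME pairs lay above the mock pair in 81 of 87 members (93.1%), against 34.4% of all genes. These counts are over genes that share libraries, so the genes are not independent of one another.

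The libraries behind these differences are uneven. The mock library was the lowest of the 6 BME libraries for 32 of 87 members, where it was lowest for 15.0% of all genes, and the highest for 0, against 12.7%. Untreated line 700 was the lowest for 28 (11.3% of all genes) and the highest for 0 (12.6%), and the line 700 dox library was the highest for 41 (21.6%). The median member level, as log2(FPKM + 1), was 6.996 in the mock library and 7.20 to 7.30 in the other 5.

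**Figure D2:**
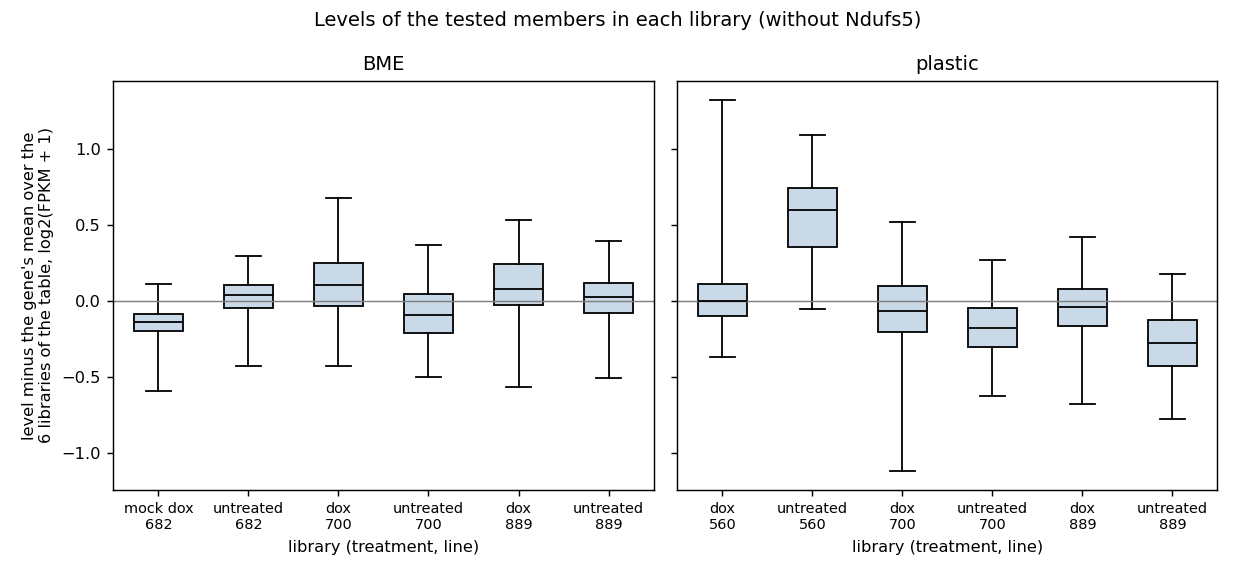
Level of the tested members other than Ndufs5 in each of the 6 BME and 6 plastic libraries, as the difference from the gene's mean over the libraries of its table on the log2(FPKM + 1) scale; boxes give quartiles and median, whiskers the lowest and highest gene. The mock library and untreated 700 sit low in BME, and the median of untreated 560 lies above that of every other plastic library.

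Other gene groups were lower in the mock pair too. The 81 tested cytosolic ribosomal protein genes had a median of -0.47 and 0 of 81 were higher, and the 78 mitochondrial ribosomal protein genes had a median of -0.25. The 18 genes of the TCA cycle and pyruvate dehydrogenase had a median of -0.19, and the 15 glycolysis genes 0.04. In BME line 700 the medians were 0.05 (cytosolic ribosomal), 0.001 (mitochondrial ribosomal), 0.08 (TCA) and 0.22 (glycolysis, 13 of 15 higher), so the members' median of 0.18 was above the first 3 and below that of glycolysis. In BME line 889 they were -0.12, 0.04, -0.11 and -0.21, beside 0.05 for the members. Line 682, the mock treatment and the single library cannot be told apart in these values.

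Markers of cell state differed with dox as well. The summed FPKM of 10 absorptive enterocyte markers was 224 with dox and 33.5 without in BME line 700, 210 and 76.4 in line 889, and 153 and 51.7 in the mock pair. On plastic it was 56.2 and 5.46 in line 560, 12.2 and 6.44 in line 700, and 10.1 and 3.14 in line 889. The dox library was thus the higher of each of the 6 pairs, mock included, while the members were mostly lower in the mock and line 560 pairs. The summed FPKM of 7 stem cell markers was 337 with dox and 467 without in BME line 700, 381 and 475 in line 889, and 619 and 519 in the mock pair. Proliferation markers (6 genes) stood at 157 with dox and 287 without in BME line 700, at 424 and 412 in line 889, and at 361 and 425 in the mock pair. On plastic the stem cell sums were 166 with dox and 171 without in line 560, 49.2 and 60.5 in line 700, and 65.9 and 58.1 in line 889. The proliferation sums were lower with dox in all 3 plastic pairs, at 225 and 263 in line 560, 113 and 176 in line 700, and 170 and 234 in line 889. The part of these markers' cells in the members' values was not tested.

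On plastic, no member was called between 3 dox and 3 untreated libraries, where 0.0324% of all 12333 genes were called. The lowest adjusted p of a member was 0.706 in limma, and at an unadjusted p under 0.05 there were 0 higher and 0 lower, against 4.56% and 3.73% of all genes. The median change over 88 members was -0.06, with 28 above 0 and 60 below, where the median over all genes was 0.01 and 51.1% were above 0. The median standard error of a member was 0.30, against 0.17 in BME.

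The 3 lines on plastic did not agree in direction. In line 560 the median change was -0.58, and 82 of 88 members were lower with dox. Other groups were lower there too, with medians of -0.60 (mitochondrial ribosomal), -0.87 (cytosolic ribosomal), -0.40 (glycolysis) and -0.08 (TCA). Set against genes of like transcript length, as described below, the members' median in line 560 was -0.04. In lines 700 and 889 the members' medians were 0.11 and 0.25, with 64 and 71 of 88 higher. The mean of the 3 medians was -0.08 ± 0.45 (SD, n = 3). By complex, line 560 ranged from -0.29 (complex II) to -0.69 (complex V), and line 889 from 0.14 (complex II) to 0.38 (complex V). Complex II had the smallest absolute median in lines 560 and 889, and in line 700 it was -0.07 while the other complexes were between 0.07 and 0.19.

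Untreated 560 stood high among the plastic libraries for most members. It held the highest value of 74 of 88 members and the lowest of 1. Over all tested genes it was highest for 27.6% and lowest for 28.6%. Its median member level was 7.44 against 6.40 to 6.81 in the other 5 plastic libraries. The part of this library in the line 560 difference was not tested. Without that library, the limma median over members was 0.19, and 11 of 88 members were at an unadjusted p under 0.05, all higher, where 4.95% of all genes were higher and 4.85% lower. None was called by limma (lowest adjusted p 0.257). Untreated 889 was the lowest library for 52 of 88 members (13.5% of all genes), and without it the limma median was -0.23 with 10 members above 0. Without untreated 700 it was -0.14, with 16 above 0.

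The genes with the highest change on plastic were Uqcrh, Ndufv3, Cox8a and Cox6a1. Uqcrh, the hinge protein of complex III, was at 288, 245 and 254 FPKM with dox (lines 560, 700 and 889) and 369, 168 and 134 without (limma change 0.37, SE 0.39, adjusted p = 0.858). Ndufv3, a small subunit of the NADH-binding arm of complex I, was at 171, 168 and 166 with dox and 268, 100.04 and 86.8 without. Its dox values were nearly equal, and both the lowest and the highest of the 6 libraries were untreated. Cox8a, the small complex IV subunit, was at 1100, 1891 and 1510 FPKM with dox and 1631, 1243 and 814 without. Cox6a1 was at 919, 1037 and 1118 with dox and 1328, 680 and 632 without. In each of these genes line 560 was lower with dox and lines 700 and 889 higher, so the arms overlapped.

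The lowest changes on plastic were those of Ndufs6 (-0.45, SE 0.31), Ndufb4, Ndufa10 and Ndufs8. Ndufa10, a membrane-arm subunit of complex I, was lower with dox in all 3 lines, at 70.6, 46.7 and 47.9 FPKM against 98.0, 60.9 and 64.5. The pair changes were -0.47, -0.38 and -0.42 (SD 0.05), but the lines differed more than the pairs did. The limma change was -0.42 (SE 0.27, adjusted p = 0.752), from a fit without line as a block, so the SE holds the spread between lines. With line as a block 0 members were called on plastic, against 7 of all 12333 genes (lowest limma adjusted p of a member 0.402). In BME the same gene stood at 81.0 to 93.0 FPKM in all 6 libraries, with pair changes of 0.03, 0.01 and, with mock, -0.16. Ndufs8, a core iron-sulfur subunit, was at 112, 95.1 and 102 FPKM with dox and 250, 108 and 84.6 without, so lines 700 and 889 had opposite signs and line 560 the largest difference (limma change -0.36, SE 0.40). Ndufb4 was at 119, 122 and 125 with dox and 248, 143 and 125 without. A gene of like name, Ndufb4c, is also a member, and whether reads are shared between them was not tested.

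A fixed set of 10 landmark subunits was followed across the complexes, and 0 of them were called in BME or on plastic. Of all genes, 0.0231% were called in BME and 0.0324% on plastic. Atp5b, the catalytic beta subunit of the ATP synthase, had changes of 0.02 and -0.06 in the induced BME pairs, -0.17 with mock, and -0.43, 0.08 and -0.07 on plastic. Sdha, the flavoprotein of succinate dehydrogenase, was at 69.9, 49.4 and 43.0 FPKM with dox on plastic and 57.3, 57.1 and 54.9 without, so it was higher in line 560 where most members were lower. Ndufs1, the largest complex I subunit, had changes of 0.11, -0.15 and -0.11 on plastic and of 0.06 and 0.02 in the induced BME pairs. Uqcrfs1, the Rieske iron-sulfur protein, was at 59.3, 63.7 and 62.8 FPKM with dox on plastic and 56.7, 57.5 and 53.8 without. It was higher in all 3 lines there (change 0.14, SE 0.16, limma adjusted p = 0.869). In BME its changes were 0.02 and -0.005 in the induced pairs and -0.27 with mock. Cox5a was higher in lines 700 and 889 in both environments (0.20 and 0.13 in BME, 0.40 and 0.50 on plastic) and lower in line 560 (-0.13). It was also higher in the mock pair (0.06). Cox4i1, another large complex IV subunit, had changes of 0.12 and 0.15 in the induced BME pairs, -0.12 with mock, and -0.89, 0.19 and 0.20 on plastic (lines 560, 700 and 889). In the same order, Ndufv1, the NADH-binding core subunit of complex I, had 0.13 and 0.05, -0.09 with mock, and -0.35, -0.21 and 0.12. For Sdhb, the iron-sulfur subunit of complex II, these values were 0.07 and -0.14, -0.17, and -0.63, -0.21 and 0.14. Uqcrc1, a core protein of complex III, had -0.09 and 0.05, -0.17, and -0.73, -0.02 and -0.11. For Atp5a1, the alpha subunit of the ATP synthase, they were 0.02 and -0.05, -0.14, and 0.05, -0.09 and -0.15. Sdha, Ndufs1, Uqcrfs1 and Atp5a1 were thus the landmarks that were not lower with dox in line 560.

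No member was higher in all 5 induced pairs, where 8.70% of all genes were. Ndufaf5, an assembly factor that modifies a complex I core subunit, was the 1 member lower in all 5, where 8.06% of all genes were. Its changes were -0.02 and -0.09 in BME and -0.23, -0.29 and -0.11 on plastic, at levels of 1.95 to 4.47 FPKM. It was also lower in the mock pair (-0.09). Leaving out line 560, 38 of 87 members (43.7%) were higher in the 4 induced pairs of lines 700 and 889, against 16.1% of all genes. Of these, 32 were also lower in line 560 and in the mock pair, a pattern held by 4.05% of all genes. Across the 87 members the changes of lines 700 and 889 on plastic had r = 0.67, while line 560 had r = -0.28 and -0.18 with them. Over all 11977 genes the values were 0.51, 0.18 and 0.28. These genes share libraries, so the values are descriptions.

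Whether the dox difference itself differed between plastic and BME was tested gene by gene, for genes that passed the filter in each table. No member was called, as was the case for 0% of all 11977 genes by limma (at an unadjusted p under 0.05, 0 members, against 1.3% of all genes higher and 1.23% lower). The median difference, plastic minus BME, was -0.20, with 13 of 87 members above 0 and 74 below, where the median over all genes was 0.01 and 51.4% were above 0. With untreated 560 left out the median was 0.11, and with lines 700 and 889 alone it was 0.07. The sign of the median thus turned without that library. Without untreated 889 it was -0.36, and without untreated 700 -0.32.

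Transcript length moved with these changes. A relative length was taken for each gene from the ratio of its mean normalised count to its mean FPKM, set to 1 at the median tested gene. The members were short, with a median relative length of 0.21, and 71 of 87 in BME and 72 of 88 on plastic lay below a relative length of 0.5, where 2611 other genes lay below and 10298 above it in BME, and 2435 below and 9810 above it on plastic. In the plastic pair of line 560 the change rose with length over all 12333 genes (r = 0.35 with log2 length). There, non-member genes below a relative length of 0.5 had a median of -0.54 and those above it 0.11. In the mock pair r was 0.13 over 12996 genes, with medians of -0.13 and 0.01, and in the other 4 pairs r lay between -0.14 and -0.04.

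Short members (relative length below 0.5) and long members were also set apart by pair. In line 560 the median was -0.63 for 72 short members and -0.31 for 16 long members. On plastic in line 889 the medians were 0.30 and -0.07, and in line 700 they were 0.14 and -0.12. In BME line 700 the medians were 0.20 for 71 short members and 0.07 for 16 long members, and in BME line 889 they were 0.07 and 0.003. In the mock pair they were close, at -0.17 and -0.15, and over the 87 members r with log2 length was -0.03 there. In both environments the median of lines 700 and 889 was thus higher for short members than for long ones.

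When each gene's change was set against the median of all genes of like length (20 bins, an alternative added after the data were seen), the members' medians drew together. They were -0.07 in the mock pair, 0.13 in BME line 700 and 0.02 in BME line 889. On plastic they were -0.04 in line 560, 0.09 in line 700 and 0.08 in line 889. In line 560, 39 of 88 members were then above 0, where 6 had been, and in the mock pair 25 of 87, where 8 had been. In BME line 700, 76 of 87 were above the genes of like length. Set against genes of like mean FPKM instead, the medians were -0.04, 0.12 and 0.01 in BME and -0.23, -0.03 and 0.09 on plastic. The part of fragment length, RNA quality or library preparation in the relation with length was not tested.

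**Figure D3:**
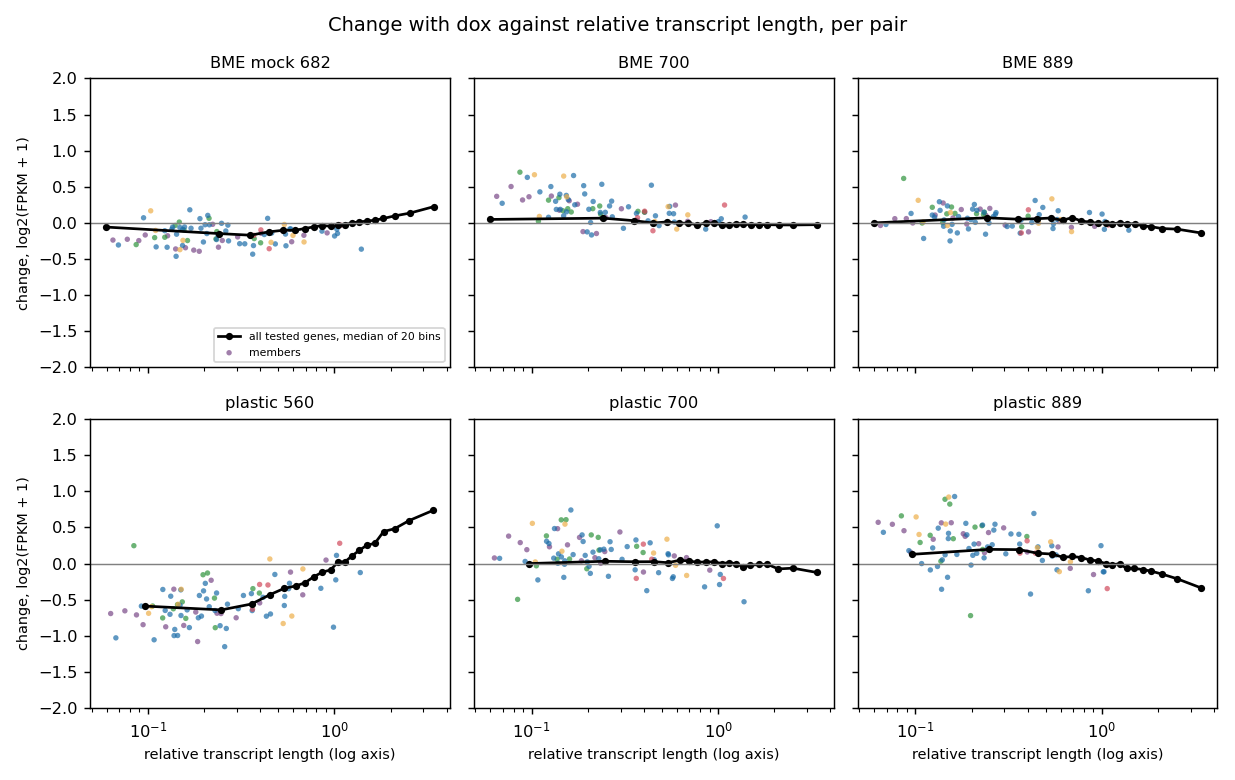
Change with dox against relative transcript length (log axis, 1 at the median tested gene) in the 6 same-line pairs; coloured points are members other than Ndufs5, and the black line joins the medians of 20 length bins over all tested genes. In plastic line 560 the line climbs with length (median -0.54 for non-members below a relative length of 0.5 and 0.11 for the others), and in BME line 700 most members (76 of 87) lie above it.

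**Figure D4:**
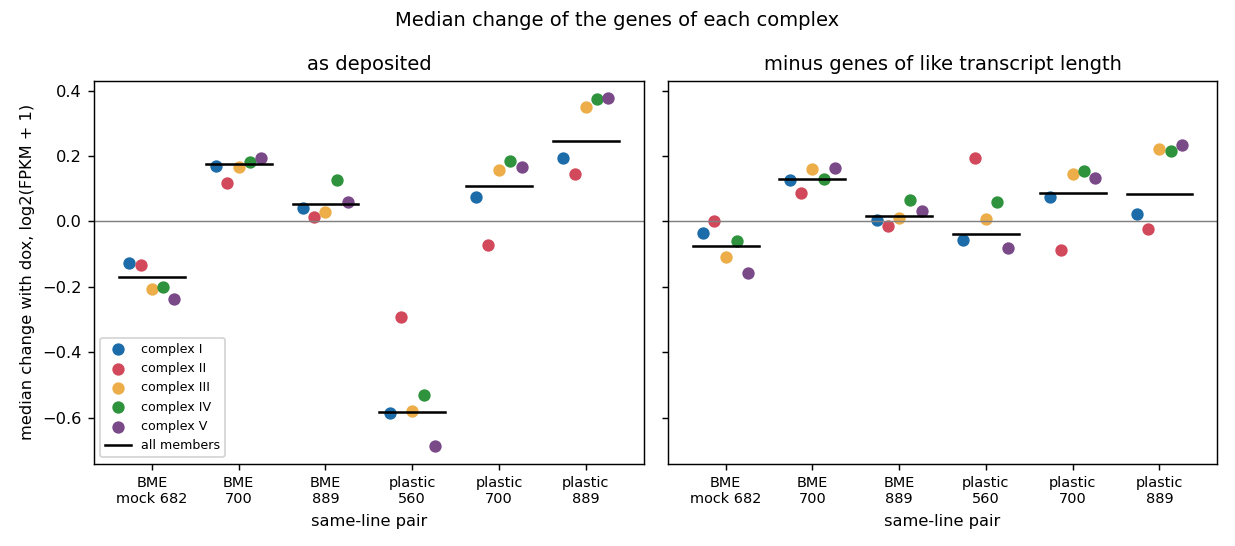
Median change with dox of the members of each complex per same-line pair, on the log2(FPKM + 1) scale, as deposited (left) and after subtracting the median of genes of like transcript length (right); bars give the median over all members. The median of line 560 on plastic goes from -0.58 to -0.04 and that of the mock pair from -0.17 to -0.07.

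Ndufs5, an accessory subunit of complex I, followed the line and not the treatment. In BME it was at 50.1 FPKM with mock and 52.2 untreated in line 682, at 65.6 with dox and 51.3 untreated in line 700, and at 0 in both libraries of line 889. On plastic it was at 86.6 and 78.9 FPKM in line 700, 0.510 and 0.258 in line 889, and 0.384 and 0 in line 560. The 0 values stand for 0 rebuilt reads, where 276 to 579 were rebuilt in the libraries of lines 682 and 700. Of all 24906 genes listed, Ndufs5 was the 1 gene at or above 10 FPKM in every library of lines 682 and 700 and below 1 FPKM in every library of lines 560 and 889.

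The pseudogene BC002163 showed the opposite pattern. It was at 95.5 and 90.9 FPKM in the BME libraries of line 889, at 0 in the other 4 BME libraries, at 89.7 to 143 FPKM in lines 560 and 889 on plastic, and at 0.703 and 0 in line 700. In NCBIM37 it lies at chr16:42955744-42956064, and 319 of its 321 bases match the Ndufs5 transcript (99.4%, 2 differences). Among all genes listed, 2 others had this reversed pattern and are named after their values were seen: Eif2s3y, a gene of the Y chromosome, and H2-L, a major histocompatibility gene that differs between mouse strains. Reads shared by Ndufs5 and its copy could be counted in either row, so the level of Ndufs5 alone is uncertain in these tables. Summed over both rows, the changes were -0.06 with mock, 0.35 and 0.07 in the induced BME pairs, and -0.66, 0.14 and 0.02 on plastic, each of the sign of the members' median in its pair. For Ndufs5 alone the limma change in BME was -1.25 (SE 2.26), with 1 dox line at 0 and the other at 65.6 FPKM.

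**Figure D5:**
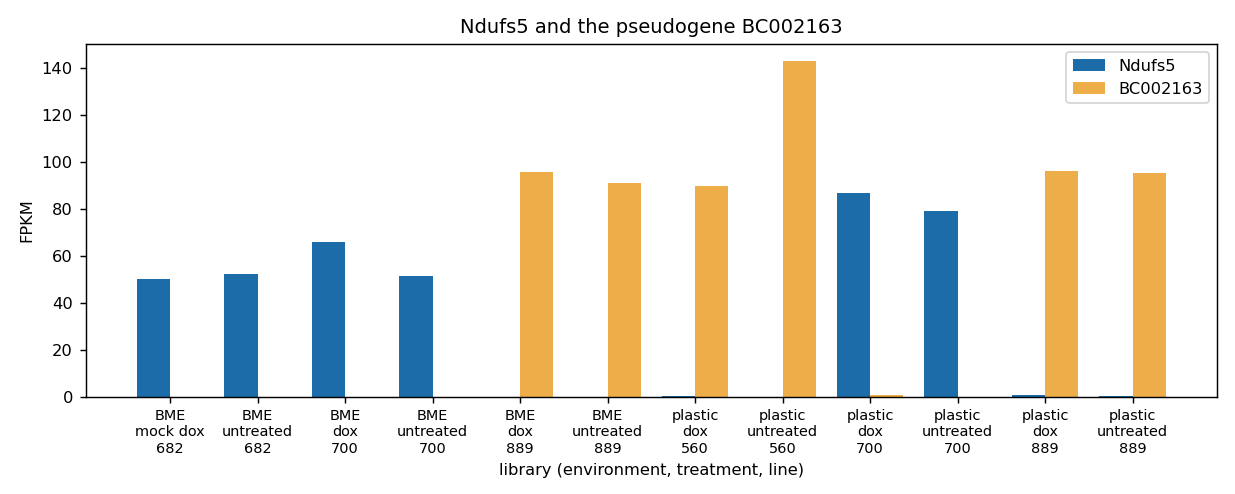
FPKM of Ndufs5 and of the pseudogene BC002163 in the 12 libraries, 1 bar per gene and library. Lines 682 and 700 hold Ndufs5 values of 50.1 to 86.6 FPKM with BC002163 at or below 0.703, and lines 560 and 889 the reverse, whatever the treatment.

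A list of 17 mitochondrial biogenesis regulators, chosen with earlier results known, had a median change of -0.22 in BME line 700, -0.08 in BME line 889 and -0.16 with mock, with 1, 5 and 3 of 17 genes higher. On plastic the list was mixed: 6, 5 and 7 of 16 tested genes were higher in lines 560, 700 and 889, with medians of -0.04, -0.17 and -0.10, and in line 560 the mean was 0.06. Of the list, 0 genes were called in either environment, against 0.0231% of all genes in BME and 0.0324% on plastic. Esrra, the estrogen-related receptor alpha, was the 1 gene of the list at an unadjusted p under 0.05 in BME (change 0.44, limma adjusted p = 0.959), where 2.62% of all genes were higher and 1.47% lower. It was higher in both induced BME pairs (0.32 and 0.18) and in lines 700 and 889 on plastic (0.49 in each), and it was -0.10 in the mock pair and -0.08 in line 560. Tfam, which packages and transcribes mitochondrial DNA, was -0.25, -0.09 and, with mock, -0.22 in BME and -0.25, -0.22 and -0.34 on plastic. Myc was -0.56, -0.05 and -0.28 in BME, in the same order, and -0.01, -0.29 and -0.56 on plastic.

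In the pathways beside the respiratory chain no gene was called. Of all genes, 0.0231% were called in BME, 0.0324% on plastic and 0% in the other comparisons. In the TCA list 0 of 18 genes passed the test in any of the 4 comparisons, in the glycolysis list 0 of 15, and among 40 tested assembly genes outside the Nduf, Cox and Atp5 names 0. TCA genes were lower in 15 of 18 cases in the mock pair, in 7 of 18 in BME line 700 (11 higher, median 0.08) and in 14 of 18 in BME line 889, and on plastic in 10, 13 and 16 of 18 (lines 560, 700 and 889). In lines 700 and 889 on plastic the TCA medians were thus below 0 (-0.12 and -0.15) where the respiratory members' were above it. A list of 20 mitochondrial stress genes (19 tested in BME) had medians of 0.02 with mock, -0.03 in BME line 700 and -0.10 in BME line 889. On plastic the medians were -0.60, -0.19 and -0.37 (lines 560, 700 and 889). Of these 20 genes, 0 were called, and on plastic 4 were lower at an unadjusted p under 0.05: Phgdh (-0.87), Shmt2 (-0.83), Mthfd2 (-0.62) and Gdf15 (-1.15). Shmt2 and Mthfd2 are enzymes of mitochondrial one-carbon metabolism and Phgdh opens serine synthesis. Their lowest adjusted p was 0.463 by limma, and 3.73% of all genes were lower at that unadjusted p.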

How the data were processed

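The study's methods and the submitters' processing notes name kallisto, DESeq2 and mm9; versions are not given in the sources used here. The authors deposited FPKM per gene and library, 1 table per environment, and comparison tables whose mean normalized count, a pooled signal over libraries, was used here only for read depth and relative length. The fold changes, standard errors, scores, p-values and adjusted p-values in those tables are the authors' own comparisons and were not used.

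Values were analysed as log2(FPKM + 1), so changes of low genes are understated. Genes with a mean of at least 0.5 FPKM were tested (12996 in BME, 12333 on plastic, 11977 in both) with limma 3.58.1 in R 4.3.3 (lmFit, eBayes with trend, two-sided), with Benjamini-Hochberg adjustment over all genes tested. BME compared 2 dox with 4 control libraries, the mock library counted as a control as in the study. The induced change minus the mock change was fitted with line as a block and terms for dox and SMAD4. Pair medians have no test. Replicates are organoid lines, but apart from induced minus mock the main fits had no line block and took each library as independent. Lines given dox stood in both arms, and in BME the mock library and its untreated partner were both controls. Those p-values thus measure the spread between libraries that are not all independent. For induced minus mock, the 1 residual degree of freedom comes from the difference between the 2 induced pairs. The mock pair adds none. Same-line libraries deviated together (r 0.65 to 0.74 in BME and 0.25 to 0.61 on plastic), so lines pair the samples. The limma script was tested on simulated data. Between 83.7% and 88.0% of low values were whole reads within 0.05, and the rebuilt depth (14531212 to 21066051 reads) gave 82 of the tested members at least 100 reads in every library of each table.

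The members, the lists and the tests were chosen with earlier results of these data known. Named members were the 4 highest and 4 lowest changes in BME, on plastic and for induced minus mock, the most abundant gene of each complex, members of 1 direction in all 5 induced pairs, 10 landmark subunits and 6 isoform groups. Alternatives were a pseudocount of 0.1, no filter or a mean of 5 FPKM, other uses of the mock library, line as a block, median-centred libraries and each library left out.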

Additional observations from a re-analysis of the deposited data

Results flagged for a closer look

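The median change of the members went one way in the mock pair and the other way in both induced BME pairs, for all members and for each complex. On the log2(FPKM + 1) scale the difference, induced mean minus mock, was 0.29 over all members. By complex it was 0.23 (I), 0.20 (II), 0.31 (III), 0.36 (IV) and 0.36 (V). An offset was not particular to the members. The induced mean and the mock median were 0.02 and -0.25 for mitochondrial ribosomal protein genes, and -0.04 and -0.47 for cytosolic ones. For TCA genes they were -0.01 and -0.19, and for glycolysis genes 0.01 and 0.04. Over all members the difference was 0.15 when each change was set against genes of like transcript length and 0.11 against genes of like mean FPKM, both added after the data were seen. The opposite signs did not hold for each complex under these: against genes of like length complex II was at 0.000845 in the mock pair and -0.01 in line 889, and against genes of like mean FPKM complexes II and III were at -0.03 and -0.02 in line 889. These differences between medians were not tested, and with 1 mock pair and 2 induced pairs the line, the drug and the construct cannot be told apart. No labelled group held 4 or more libraries, so no library was tested as standing apart from its group.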

How the results depend on the processing

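The count of called members was 0 in each of the 4 comparisons and 0 under every alternative run, including each library left out in turn (0 to 0). With line as a replicate block it was 0 in BME, on plastic and for the difference between environments, so pairing by line changed no member's call there. Without a replicate block the induced minus mock fit compared the dox libraries with the 1 mock library. That is another contrast (median over members 0.21), so it does not show what pairing did. With no filter on low values the induced minus mock change put 11 of 94 members above and 1 below 0 past an unadjusted p of 0.05, against 2.94% and 3.27% of all 24906 genes (lowest limma adjusted p 0.052). Leaving out 1 induced pair there was not run, since no residual degree of freedom is left. Of 1977 values of named genes under alternatives, 204 had the other sign and 0 passed the threshold.

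The medians of the mock pair depended on the setting. Against genes of like transcript length (added after the data were seen) they were -0.0742 over all members, -0.0349 for complex I, 0.000845 for complex II, -0.108 for complex III and -0.0605 for complex IV. Against genes of like mean FPKM (also added) they were -0.0435 over all members, -0.0144 for complex II, -0.0245 for complex III, -0.0182 for complex IV and -0.0601 for complex V. Complex IV was at -0.110 with no filter, -0.154 as a mean and -0.160 with structural subunits alone. With each line left out in turn the mean median over members ranged from -0.24 to 0.18 on plastic, above 0 without line 560, and from 0.05 to 0.18 in the induced BME pairs. The induced BME median of complex IV was 0.0986 against genes of like length and 0.0929 against genes of like level. Beyond the length and level alternatives, the cause was not tested. There was 1 mock pair and 2 induced BME pairs, and the part of read depth was not tested.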
